A study of Homo sapiens with 18 samples.

Results

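The genes described here encode the chaperones, folding enzymes and quality-control machinery of the endoplasmic reticulum (ER), with the sensors and the transcription factor of the unfolded protein response (UPR). They are 38 genes of a fixed list, which was chosen with earlier results of these data known. They were taken from the 58735 rows of the gene table by Ensembl identifier, and 36 of them passed the count filter that left 17346 genes for testing. DERL3, a Derlin of ER-associated degradation, was at 0 in every library, and KDELR3, a receptor that retrieves ER proteins from the Golgi, did not exceed 0.078 CPM (counts scaled to the library total). The cells were RPMI-8402, a human cell line established from T-cell acute lymphoblastic leukaemia. The cells carried a PIK3R1 knockout (KO) or a non-targeting control (NT), and each genotype received CB-103, the gamma-secretase inhibitor LY3039278 (GSI) or DMSO for 24 h. CB-103 blocks the NOTCH transcription complex and a gamma-secretase inhibitor blocks the cleavage that releases active NOTCH. The groups were therefore KO CB-103, NT CB-103, KO GSI, NT GSI, KO DMSO and NT DMSO, with 3 replicates each and 18 libraries in all. The sources used here do not give doses or say whether the knockout line is a clone or a pool. Whether replicates were separate cultures is not stated either, so the p-values cover the spread between libraries only, and that spread may be technical.

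The ER folds proteins that enter the secretory pathway. HSPA5 (BiP) and its co-chaperones hold unfolded chains, the lectins CALR and CANX hold glycoproteins, disulfide isomerases form and reshuffle disulfide bonds, and misfolded chains are sent back to the cytosol for ER-associated degradation. When unfolded proteins accumulate, the membrane sensors IRE1 (encoded by ERN1), PERK (EIF2AK3) and ATF6 become active. IRE1 cuts a short intron from XBP1 messenger RNA in the cytosol, and the spliced form encodes the active transcription factor. PERK lowers translation and raises ATF4 and DDIT3, and ATF6 is cleaved into a transcription factor that, with XBP1, acts on promoters of chaperone genes. The pathway is best known from secretory cells and is also used by lymphoid cells, in which XBP1 is known for its part in plasma cell differentiation.

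Library totals ran from 30416183 to 43558387 estimated reads. PIK3R1 RNA averaged 22.5 ± 1.02 CPM in KO DMSO cells and 44.1 ± 1.53 CPM in NT DMSO cells (SD, n = 3), a log2 fold change of -0.97 ± 0.09 SE with an edgeR adjusted p = 4.1e-07. With CB-103, PIK3R1 RNA was not called different between KO and NT cells (-0.16 ± 0.09 SE, edgeR adjusted p = 0.173), with 27.8 ± 2.01 CPM in KO cells and 31.1 ± 2.21 CPM in NT cells. All 9 T-lineage markers passed the filter. Their summed level was 1311 to 1394 CPM in KO CB-103, 1134 to 1268 CPM in NT CB-103, 1699 to 1777 CPM in KO DMSO and 1986 to 2061 CPM in NT DMSO libraries. It was 1752 to 1820 CPM in KO GSI and 1772 to 1786 CPM in NT GSI libraries. The sum hides opposite moves of single markers with GSI. Against DMSO, LMO1 fell 8.63-fold in KO and 8.46-fold in NT cells, and CD7 fell 2.48-fold and 1.78-fold. PTPRC rose 2.16-fold in KO and 2.24-fold in NT cells. Of the markers of other cell types, 3 of 8 for B and plasma cells passed (sums of 1.47 to 5.95 CPM over all libraries, with TNFRSF17 at 0), 3 of 6 for myeloid cells (4.65 to 40.4 CPM, highest in KO CB-103) and 2 of 6 for adherent cells (2.82 to 25.98 CPM). Mitochondrially encoded genes took 2.24 ± 0.415% of reads in KO CB-103, 5.23 ± 0.425% in NT CB-103, 1.79 ± 0.0936% in KO DMSO and 3.34 ± 0.33% in NT DMSO libraries (SD, n = 3). They took 2.46 ± 0.0976% in KO GSI and 3.79 ± 1.81% in NT GSI libraries. The NT GSI libraries spread widest, at 5.51, 1.9 and 3.95%. The part of these shifts in the results below was not tested. In bulk RNA, fewer cells expressing a gene and less of its RNA per cell cannot be told apart.

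CB-103 raised every tested gene of the ER folding and UPR list in NT cells. All 36 tested genes were called higher in NT CB-103 than in NT DMSO cells, where 29.5% of all genes tested were called higher and 28.7% lower (edgeR quasi-likelihood test, adjusted p under 0.05 over all genes, n = 3 per group). The change was at least 2-fold for 30 of the 36, against 9.99% of all genes. The median log2 fold change was 1.80 over the 36 and 0.04 over all genes tested, and single genes ranged from 0.66 for ATF6 to 4.01 for DNAJB9. In none of the 36 did the replicates of the groups overlap, and 33.1% of all genes stood higher in the same way. Together the 38 genes took 2.73 ± 0.0769% of all reads in NT CB-103 libraries and 0.627 ± 0.00951% in NT DMSO libraries (SD, n = 3).

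**Figure D1:**
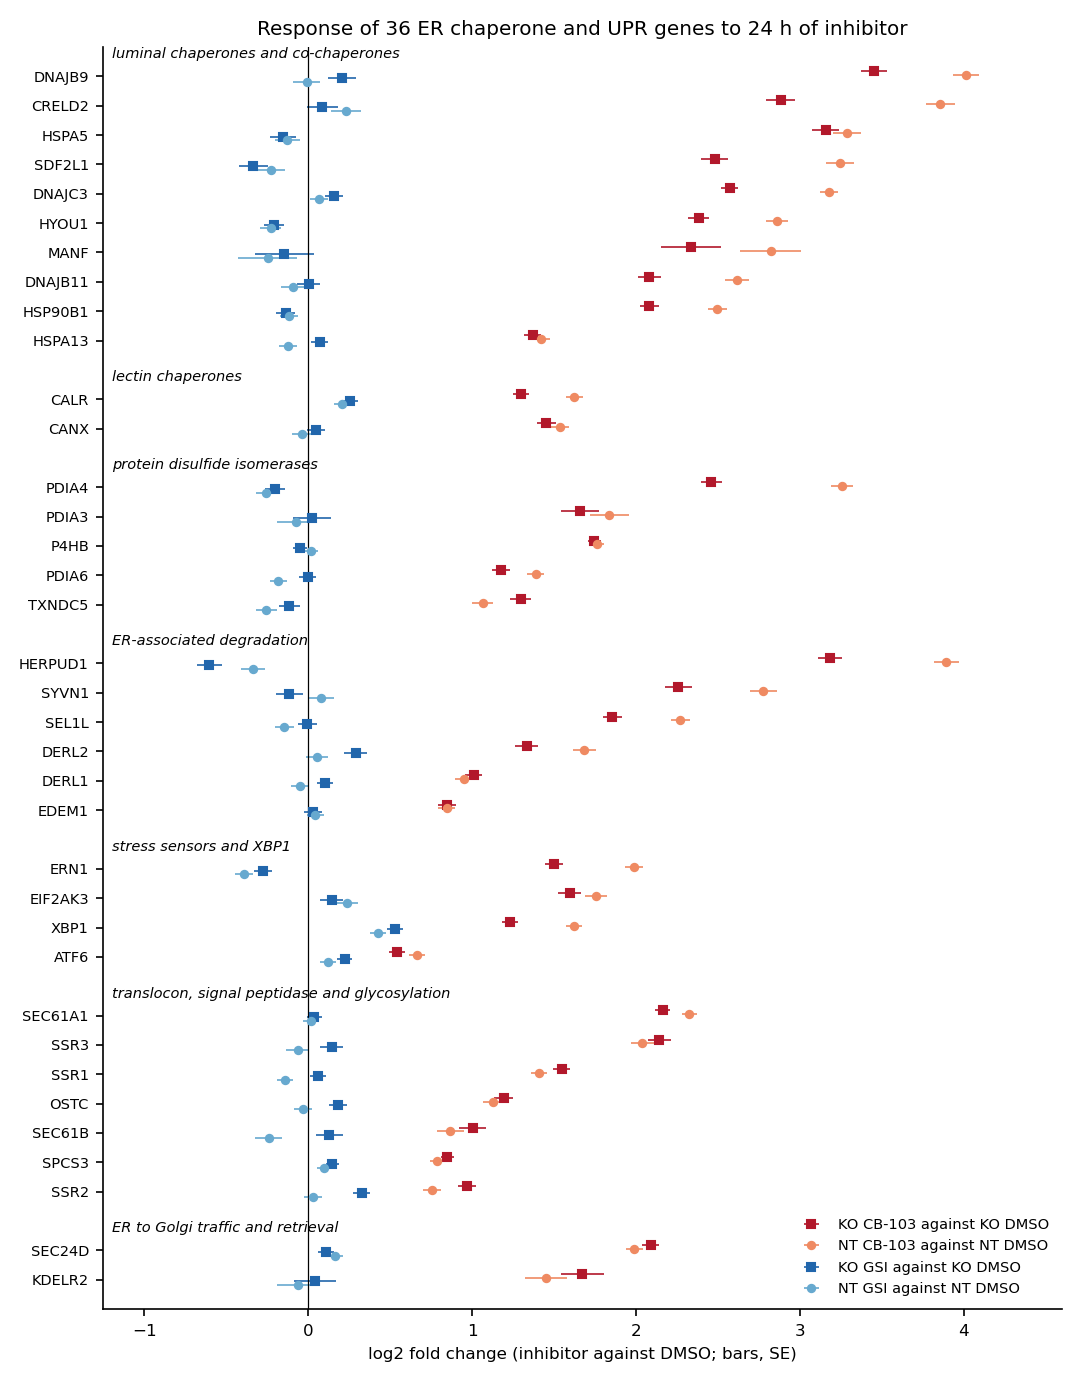
Log2 fold change (horizontal axis, with SE bars) of the 36 tested genes, grouped by role, for CB-103 against DMSO and for GSI against DMSO in KO cells (squares) and NT cells (circles). The CB-103 values lie between 0.54 and 4.01 and the GSI values between -0.60 and 0.53.

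Among the stress sensors, ERN1, which encodes the kinase and endonuclease IRE1 (chr17:64039142-64130819 in hg38), stood at 96.3, 89.9 and 94.1 CPM in NT CB-103 cells, against 24.02, 23.1 and 23.6 CPM in NT DMSO cells. Every CB-103 library lay far above every DMSO library, with a 3.97-fold rise (log2 1.99 ± 0.06 SE, edgeR adjusted p = 5.4e-15). EIF2AK3, which encodes PERK, the kinase that phosphorylates the translation factor eIF2α, measured 82.7, 76.8 and 76.3 CPM in NT CB-103 cells, against 23.9, 23.1 and 22.8 CPM in NT DMSO cells. It rose 3.38-fold (1.76 ± 0.07 SE, edgeR adjusted p = 3.2e-13), again with no overlap. ATF6 RNA, which encodes the membrane-bound precursor of a transcription factor, moved least of the 36, with 213, 202 and 193 CPM in NT CB-103 cells and 129.5, 130.1 and 125 CPM in NT DMSO cells. Its 1.58-fold rise still separated the groups (0.66 ± 0.05 SE, edgeR adjusted p = 1.4e-09). XBP1 measured 322, 306 and 311 CPM in NT CB-103 cells, against 102, 105 and 97.1 CPM in NT DMSO cells, a 3.08-fold rise (1.62 ± 0.05 SE, edgeR adjusted p = 1.5e-14).

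The luminal chaperones and co-chaperones moved furthest, with all 10 called higher and a median log2 fold change of 3.02. DNAJB9 (ERdj4), a J-domain co-chaperone of BiP, measured 210.2, 201 and 233 CPM in NT CB-103 cells, against 13.2, 13.1 and 13.6 CPM in NT DMSO cells. This 16.2-fold rise placed it 71st from the top of 17346 genes ordered by log2 fold change (4.01 ± 0.08 SE, edgeR adjusted p = 2.0e-16). CRELD2, a stress-induced protein of the ER, measured 122, 117 and 123 CPM in NT CB-103 cells, against 8.37, 8.301 and 8.29 CPM in NT DMSO cells, and rose 14.5-fold (3.86 ± 0.09 SE, edgeR adjusted p = 8.5e-16). HSPA5, the central ER chaperone BiP, held 3659.9, 3276 and 3771 CPM in NT CB-103 cells, against 379, 378 and 339 CPM in NT DMSO cells, a 9.77-fold rise (3.29 ± 0.08 SE, edgeR adjusted p = 1.9e-15). Even the lowest of the CB-103 libraries was far above the highest of the DMSO libraries. The other 7 genes of the role rose between 1.42 for HSPA13, an HSP70-family protein, and 3.24 for SDF2L1, a partner of ER J-domain proteins. They included HSP90B1, the ER form of HSP90 (2.50 ± 0.06 SE), HYOU1, a nucleotide exchange factor for BiP (2.86 ± 0.07 SE), and MANF, a secreted ER protein that binds BiP (2.82 ± 0.19 SE).

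Both lectin chaperones rose. CALR, the soluble lectin calreticulin, stood at 3374, 3014 and 3278 CPM in NT CB-103 cells, against 1096, 1029 and 1011 CPM in NT DMSO cells (1.62 ± 0.05 SE, edgeR adjusted p = 1.7e-14). CANX, its membrane-bound counterpart calnexin, stood at 2007, 1849 and 1821 CPM in NT CB-103 cells, against 672, 651 and 637 CPM in NT DMSO cells (1.53 ± 0.06 SE, edgeR adjusted p = 1.9e-13). Per length, CALR was the most abundant of the 38 in both groups, with mean levels of 1835 TPM (reads scaled to transcript length and library total) in NT CB-103 and 575 TPM in NT DMSO libraries. The order below it differed between the groups, since HSPA5 averaged 1209 TPM in NT CB-103 libraries, where only CALR and HSP90B1 (1757 TPM) were above it, and 119.6 TPM in NT DMSO libraries, below genes such as OSTC (353 TPM) and SEC61B (355 TPM).

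All 5 protein disulfide isomerases were called higher, with a median of 1.76. PDIA4 (ERp72) measured 1969, 1754 and 1927 CPM in NT CB-103 cells, against 207, 198 and 186 CPM in NT DMSO cells, and rose 9.56-fold (3.26 ± 0.07 SE, edgeR adjusted p = 2.3e-16). It stood apart from the other 4 genes of the role. PDIA3 (ERp57), which works with the lectin chaperones, measured 1022, 806 and 861 CPM in NT CB-103 cells, against 279, 244 and 230.2 CPM in NT DMSO cells (1.84 ± 0.12 SE). P4HB, the archetypal isomerase PDI, measured 768, 759 and 794 CPM in NT CB-103 cells, against 220.1, 234 and 229 CPM in NT DMSO cells (1.76 ± 0.04 SE). PDIA6 (1.39) and TXNDC5 (1.07) rose least in this role. TXNDC5 shares 60.6% of its exon bases, on the same strand, with the read-through gene BLOC1S5-TXNDC5, which averaged 1.14 CPM, and the split of reads between them is uncertain.

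The 6 tested genes of ER-associated degradation were all called higher, with a median of 1.98. HERPUD1, a membrane protein of the degradation complex around the ubiquitin ligase SYVN1, measured 348, 343 and 398 CPM in NT CB-103 cells, against 23.9, 25.7 and 23.7 CPM in NT DMSO cells. The 14.9-fold rise was the second in size among the 36 (3.89 ± 0.08 SE, edgeR adjusted p = 1.6e-16). SYVN1 (HRD1) itself measured 257, 245 and 259 CPM in NT CB-103 cells, against 39.4, 34.99 and 36.6 CPM in NT DMSO cells (2.78 ± 0.08 SE), and its adaptor SEL1L 425, 416 and 432 CPM in NT CB-103 cells, against 89.8, 88.2 and 85.7 CPM in NT DMSO cells (2.27 ± 0.06 SE). The ligase and its adaptor were thus separated from DMSO in every library. The Derlins DERL2 (1.69) and DERL1 (0.95) and the mannosidase-like factor EDEM1 (0.85) rose less. SYVN1 shares 7.24% of its exon bases, on the same strand, with FAU, which averaged 274.9 CPM, so the level of SYVN1 may include reads of FAU.

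Genes of protein entry rose by the smallest amounts as a role, with all 7 called higher and a median of 1.13. SEC61A1, the pore subunit of the translocon, moved furthest of the 7, at 1206, 1189 and 1192 CPM in NT CB-103 cells, against 236, 244 and 236 CPM in NT DMSO cells (2.33 ± 0.05 SE, edgeR adjusted p = 2.3e-16). SSR3, a subunit of the translocon-associated TRAP complex, measured 616, 665 and 676 CPM in NT CB-103 cells, against 153, 162 and 162 CPM in NT DMSO cells (2.04 ± 0.07 SE). SSR1, another TRAP subunit, measured 355, 345 and 342 CPM in NT CB-103 cells, against 129.9, 134 and 129 CPM in NT DMSO cells (1.41 ± 0.05 SE). The TRAP subunits did not move by equal amounts, since SSR2 changed by 0.75 ± 0.05 SE. OSTC of the oligosaccharyltransferase (1.13), SEC61B of the translocon (0.87) and SPCS3 of the signal peptidase (0.79) completed the role. In ER to Golgi traffic, SEC24D, a cargo-binding subunit of COPII coats, measured 403, 391 and 379 CPM in NT CB-103 cells, against 95.8, 101 and 97.97 CPM in NT DMSO cells (1.99 ± 0.05 SE, edgeR adjusted p = 2.0e-15). KDELR2, a KDEL receptor, measured 277, 216 and 215 CPM in NT CB-103 cells, against 95.3, 83.3 and 80.6 CPM in NT DMSO cells (1.45 ± 0.13 SE, edgeR adjusted p = 2.1e-08). KDELR2 shares 9.42% of its exon bases, on the same strand, with DAGLB, which averaged 25.9 CPM.

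**Figure D2:**
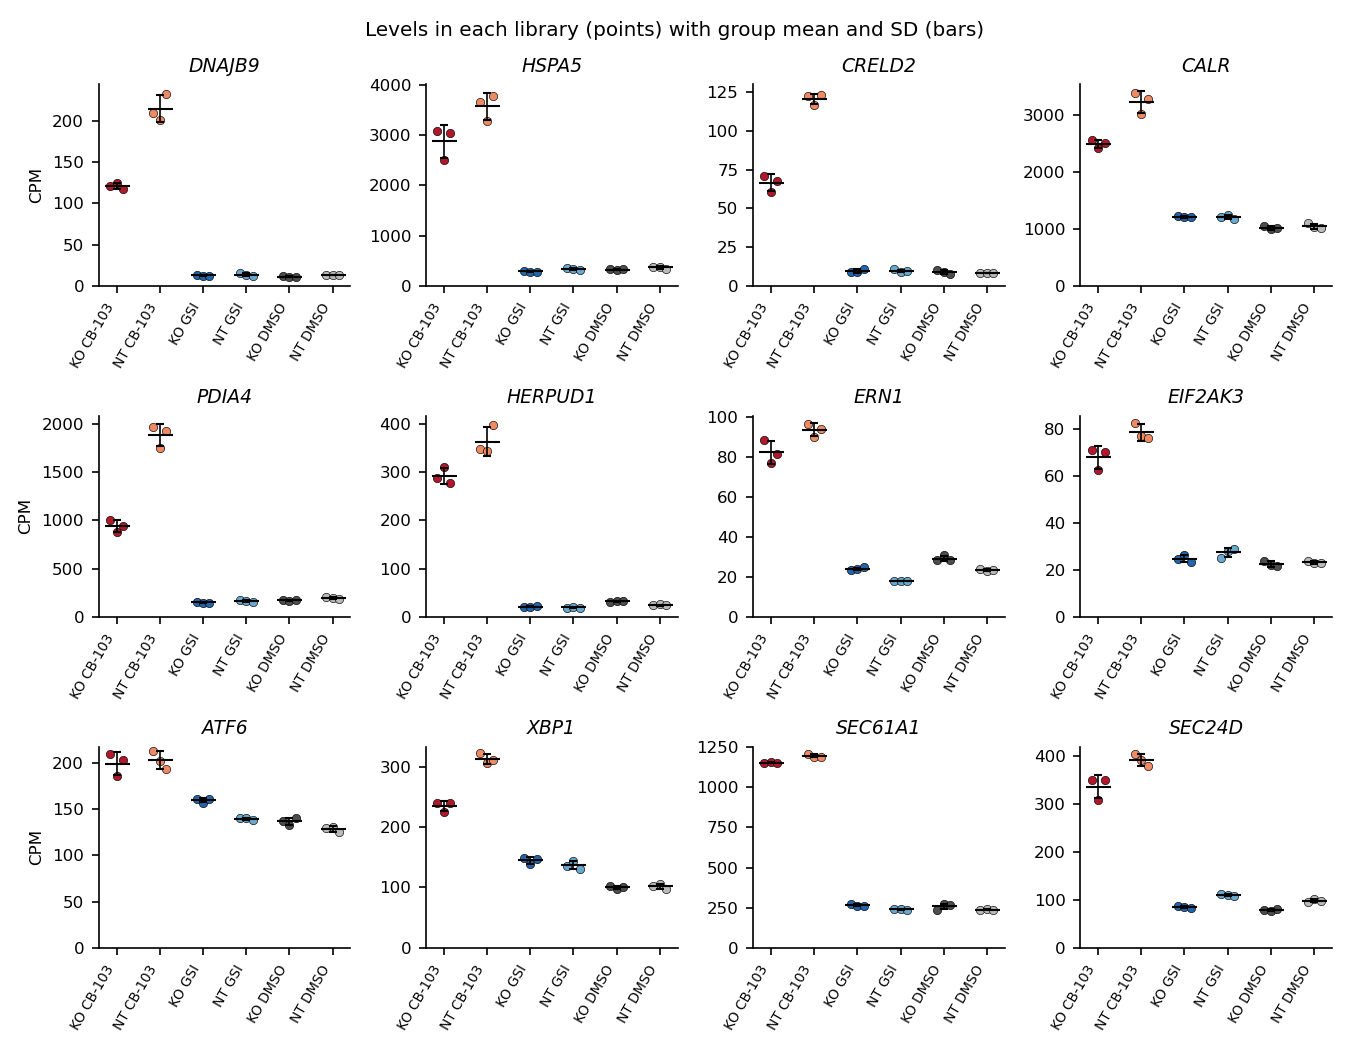
CPM in each library (points) with the mean and SD of each group (bars) for 12 genes of the list, with CB-103 groups on the left and DMSO groups on the right of each panel. All CB-103 libraries lie above all GSI and DMSO libraries in every panel, and NT CB-103 libraries lie above KO CB-103 libraries for DNAJB9, HSPA5, CRELD2, CALR, PDIA4, HERPUD1, ERN1, EIF2AK3, XBP1, SEC61A1 and SEC24D but not for ATF6. SEC61A1 was not called different between KO CB-103 and NT CB-103 cells, and the calls of ERN1 and EIF2AK3 were lost without single libraries. The share of all genes separated in this way between the genotypes was not counted.

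XBP1 differed from the other genes in the form of its RNA. The intron that IRE1 removes is 26 bases long and lies at chr22:28796124-28796149 of hg38 on the minus strand. In GENCODE release 29 it is part of an exon of the coding transcript XBP1-201 and is spliced out of the coding transcript XBP1-207, and its removal shifts the reading frame. The stretch is printed here as the 2 forms of the RNA that the transcript estimates tell apart, with 30 bases on either side, the intron in capitals in the first line and the 4 bases around the new junction in capitals in the second.
unspliced XBP1 (chr22:28796094-28796179, minus strand): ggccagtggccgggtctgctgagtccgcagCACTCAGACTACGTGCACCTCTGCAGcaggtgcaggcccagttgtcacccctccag
spliced XBP1 (same interval without the intron): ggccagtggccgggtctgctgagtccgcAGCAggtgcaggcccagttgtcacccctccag

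The share of XBP1 transcripts without the intron, computed from the deposited TPM, was 75.9, 74.6 and 76.01% in the 3 KO CB-103 libraries and 88.7, 87.6 and 88.5% in the 3 NT CB-103 libraries. In DMSO it was 18.4, 10.1 and 18.3% in KO libraries and 14.6, 12.8 and 12.6% in NT libraries. No CB-103 library fell below 74.6% and no DMSO library rose above 18.4%. Over both genotypes the share was 67.4 percentage points higher with CB-103 than with DMSO, with an exact two-sided permutation p = 0.005, the smallest that the 400 rearrangements within genotypes can give. Within a single genotype 3 libraries against 3 cannot give a p under 0.1. With GSI the share was 5.08, 4.57 and 8.47% in KO libraries and 9.66, 6.61 and 4.41% in NT libraries. The share was 7.98 points lower with GSI than with DMSO over both genotypes, with the same smallest exact permutation p = 0.005. Reads that span the junction were not counted here, and the shares rest on how the estimates divide reads among overlapping transcripts.

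In absolute level the spliced form averaged 237 ± 0.9 TPM in NT CB-103 and 11.2 ± 1.1 TPM in NT DMSO libraries (SD, n = 3). The unspliced form, summed over the transcripts with the intron, averaged 29.2 ± 1.86 TPM in NT CB-103 and 72.4 ± 3.67 TPM in NT DMSO libraries. As sums, the forms thus moved in opposite directions. At transcript level, XBP1-207 (spliced) rose 19.6-fold in NT CB-103 against NT DMSO cells (log2 4.29 ± 0.33 SE, edgeR adjusted p = 2.0e-07 over 66184 transcripts). XBP1-201 (unspliced) fell in the same comparison, by 2.67 on the log2 scale (edgeR adjusted p = 2.8e-06), to a mean of 11.5 TPM in NT CB-103 libraries. The other transcripts with the intron did not fall. XBP1-206 rose by 1.99 ± 0.25 SE (edgeR adjusted p = 3.2e-05) and XBP1-203 by 1.84 ± 0.54 SE (edgeR adjusted p = 0.0228), and XBP1-204 was not called (edgeR adjusted p = 0.435). With GSI the unspliced form averaged 113 ± 4.42 TPM in KO GSI and 110.5 ± 10.1 TPM in NT GSI libraries, above the 74.3 ± 3.73 TPM of KO DMSO and 72.4 ± 3.67 TPM of NT DMSO libraries, and XBP1-201 passed the threshold in neither genotype (edgeR adjusted p = 0.153 in KO and 0.389 in NT cells). XBP1 was the 1 gene of the 36 whose most abundant transcript differed between CB-103 and DMSO cells, in both genotypes. For the other 35 the same transcript led in both conditions.

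**Figure D3:**
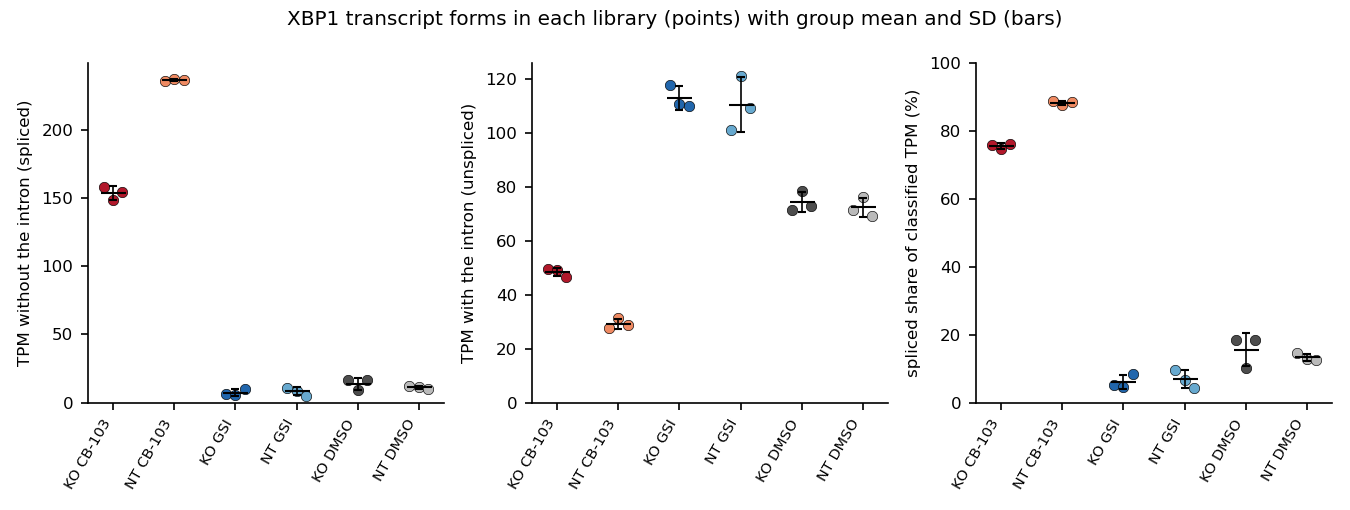
TPM of XBP1 transcripts without the 26-base intron (left), TPM of those with it (middle) and the share without it (right), in each library (points) with the mean and SD of each group (bars). CB-103 libraries lie between 74.6% and 88.7% spliced, and GSI and DMSO libraries between 4.41% and 18.4%.

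The promoters of the list were searched because its genes moved together. RefSeq promoter windows (250 bases before to 50 after a start site, GRCh38.p14) were at hand for 33 of the 38 genes, DERL1, SEC24D, DERL3, KDELR2 and PDIA3 being without one. The ER stress response element ERSE, CCAAT followed by 9 bases of any kind and CCACG, is the element through which ATF6 and XBP1 are known to act, and a shorter form, ERSE-II, is ATTGG followed by 1 base of any kind and CCACG. On either strand, ERSE was found in 7 of the 33 (21.2%) and in 25 of 27305 genes with a window (0.0916%). ERSE-II was found in 3 of the 33 (9.09%) and in 0.0696% of all. ATF6 and XBP1 are already known to act on promoters of chaperone genes, so these shares are no independent result. They were not tested. The element UPRE, TGACGTGG, a known site of XBP1, was found in HYOU1, TXNDC5, SSR3 and KDELR3 (12.1%, against 0.927% of all), and in HYOU1 it overlapped the farther of 2 ERSE-II matches, of which the nearer is printed below. The ATF4 element TGATGNAA was found in HERPUD1 alone (3.03%, against 4.46% of all). The ERSE and ERSE-II matches are printed in the direction of the motif, with the fixed letters in capitals. The search itself required these letters and left the spacer free.
HSPA5, ERSE (chr9:125241391-125241409): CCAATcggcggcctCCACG
HSP90B1, ERSE (chr12:103930216-103930234): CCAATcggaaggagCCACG
HSP90B1, ERSE (chr12:103930321-103930339): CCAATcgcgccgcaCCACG
CRELD2, ERSE (chr22:49918554-49918572): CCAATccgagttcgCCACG
CALR, ERSE (chr19:12938384-12938402): CCAATgatggtcgaCCACG
CANX, ERSE (chr5:179698778-179698796): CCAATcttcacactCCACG
PDIA6, ERSE (chr2:10812853-10812871): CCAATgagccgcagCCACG
XBP1, ERSE (chr22:28800603-28800621): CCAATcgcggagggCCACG
HYOU1, ERSE-II (chr11:119057274-119057284): ATTGGaCCACG
SDF2L1, ERSE-II (chr22:21642114-21642124): ATTGGtCCACG
HERPUD1, ERSE-II (chr16:56932025-56932035): ATTGGgCCACG

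The stretches upstream of the start sites of HSPA5, HSP90B1, HERPUD1 and XBP1 follow, each 150 bases long, to show the matches in place, with the fixed letters of every match to the 4 motifs in capitals. The HSPA5 and XBP1 stretches end at the base before the start site, the HSP90B1 stretch 61 bases and the HERPUD1 stretch 51 bases before it. A match of letters is not evidence of binding, and binding was not measured.
HSPA5 (chr9:125241344-125241493, minus strand): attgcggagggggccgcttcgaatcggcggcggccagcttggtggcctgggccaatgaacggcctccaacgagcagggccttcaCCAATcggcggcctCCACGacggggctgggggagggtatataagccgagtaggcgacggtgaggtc
HSP90B1 (chr12:103930200-103930349, plus strand): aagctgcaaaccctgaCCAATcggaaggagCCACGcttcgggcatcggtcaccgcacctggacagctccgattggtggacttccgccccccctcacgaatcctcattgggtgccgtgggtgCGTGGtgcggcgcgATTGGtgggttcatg
HERPUD1 (chr16:56931942-56932091, plus strand): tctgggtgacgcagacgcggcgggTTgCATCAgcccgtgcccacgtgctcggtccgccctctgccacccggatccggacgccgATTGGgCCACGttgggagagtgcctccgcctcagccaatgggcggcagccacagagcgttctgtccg
XBP1 (chr22:28800570-28800719, minus strand): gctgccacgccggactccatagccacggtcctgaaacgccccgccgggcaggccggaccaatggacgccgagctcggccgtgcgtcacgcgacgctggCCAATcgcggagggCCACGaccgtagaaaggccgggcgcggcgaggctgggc

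The 10 genes with an ERSE or ERSE-II match had log2 fold changes between 1.39 and 3.89 in NT CB-103 against NT DMSO cells, with a median of 2.68. The 22 tested genes with a window and neither element ranged from 0.66 to 4.01, with a median of 1.76, and they include DNAJB9, the gene with the largest rise. The ranges of the sets overlap over most of their length, and the difference between the medians was not tested.

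CB-103 raised the same list in KO cells. Each of the 36 tested genes was higher in KO CB-103 than in KO DMSO cells by the same test, which called 24.9% of all genes higher and 23.7% lower. For 32 of the 36 the rise was at least 2-fold (6.04% of all genes). The median was 1.66 over the 36 and -0.01 over all genes. The extremes were again ATF6 (0.54 ± 0.05 SE) and DNAJB9 (3.45 ± 0.08 SE). The 38 genes took 2.15 ± 0.0721% of reads in KO CB-103 libraries and 0.635 ± 0.00223% in KO DMSO libraries (SD, n = 3).

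The rise was smaller in KO cells for a group of these genes. In the test of the difference between responses (KO minus NT), 15 of the 36 were called lower, where 4.34% of all genes were, and 0 were called higher, where 10.3% of all genes were (edgeR interaction test). In the higher direction 2 genes, TXNDC5 and SSR2, had an unadjusted p under 0.05, and the Wald test of DESeq2 called 2 higher. By role, the 15 were 7 of 10 luminal chaperones, 1 of 2 lectins, 1 of 5 isomerases, 4 of 6 degradation genes and 2 of 4 sensors and XBP1, with 0 of 7 entry genes and 0 of 2 traffic genes.

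CRELD2 had the largest difference. It measured 71.1, 60.5 and 67.9 CPM in KO CB-103 cells and 10.1, 9.11 and 7.86 CPM in KO DMSO cells, a response -0.97 ± 0.12 SE from that of NT cells on the log2 scale (edgeR adjusted p = 5.1e-05). PDIA4 followed, with 1009, 878 and 946 CPM in KO CB-103 cells and 178, 165 and 171 CPM in KO DMSO cells (difference -0.80 ± 0.09 SE, edgeR adjusted p = 1.6e-05). Under CB-103 it was lower in KO than in NT cells (log2 -0.996 ± 0.06 SE, edgeR adjusted p = 2.2e-09). SDF2L1 measured 30.8, 32.2 and 32.3 CPM in KO CB-103 cells, 55.01, 50.6 and 56.4 CPM in NT CB-103 cells, 5.16, 6.01 and 5.86 CPM in KO DMSO cells and 5.44, 6.23 and 5.45 CPM in NT DMSO cells (difference -0.76 ± 0.11 SE, edgeR adjusted p = 2.5e-04). The genotypes thus overlapped in DMSO and separated under CB-103.

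HERPUD1 stood at 287, 310.3 and 278 CPM in KO CB-103 cells and 30.3, 32.9 and 32.9 CPM in KO DMSO cells (difference -0.71 ± 0.10 SE, edgeR adjusted p = 1.2e-04). DNAJC3, a co-chaperone of BiP also known as an inhibitor of PERK, measured 169, 160.04 and 169.6 CPM in KO CB-103 cells, 224, 223 and 236 CPM in NT CB-103 cells, 27.6, 26.98 and 29.2 CPM in KO DMSO cells and 25.2, 25.3 and 25.02 CPM in NT DMSO cells (difference -0.60 ± 0.07 SE, edgeR adjusted p = 3.4e-05). Without inhibitor, DNAJC3 was slightly higher in KO than in NT cells, though not called, and this enters its difference in response. HERPUD1 was called higher in KO than in NT cells in DMSO, as given below, and this enters its difference too. DNAJB9 measured 121, 124 and 118 CPM in KO CB-103 cells and 11.3, 10.6 and 11.2 CPM in KO DMSO cells (difference -0.56 ± 0.11 SE, edgeR adjusted p = 0.00199). The other 9 genes called lower ranged from -0.33 for CALR to -0.54 for DNAJB11, a J-domain co-chaperone. The call of DERL2 in this test (-0.35, edgeR adjusted p = 0.0189) was lost without NT CB-103 replicate 3 (adjusted p = 0.0593) or KO DMSO replicate 1 (adjusted p = 0.0523), and the other 14 calls stood when any 1 library was left out. With a replicate number left out of every group, calls were lost for DERL2 without replicate 1, for SEL1L, SYVN1 and DERL2 without replicate 2, and for 10 of the 15 without replicate 3 (HSP90B1, HYOU1, DNAJB11, SDF2L1, CALR, SEL1L, SYVN1, DERL2, ERN1 and XBP1). DNAJB9, DNAJC3, CRELD2, PDIA4 and HERPUD1 remained called in each of these fits.

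HSPA5, a widely used marker of the response, was not among the 15. It measured 3084, 2497 and 3044 CPM in KO CB-103 cells and 331, 309.7 and 325 CPM in KO DMSO cells, and its response differed from that of NT cells by -0.13 ± 0.11 SE (edgeR adjusted p = 0.473). Its level under CB-103 was lower in KO than in NT cells (-0.31 ± 0.08 SE, edgeR adjusted p = 0.00367). Of the sensors, ERN1 measured 88.4, 76.8 and 81.6 CPM in KO CB-103 cells and 28.3, 30.8 and 28.3 CPM in KO DMSO cells (difference -0.49 ± 0.08 SE, edgeR adjusted p = 3.4e-04). This difference includes a higher level of ERN1 in KO DMSO than in NT DMSO cells, which was itself called, as given below. EIF2AK3 measured 70.9, 62.4 and 70.4 CPM in KO CB-103 cells and 23.9, 21.9 and 21.6 CPM in KO DMSO cells, and ATF6 209, 185 and 203 CPM in KO CB-103 cells and 137, 133 and 140.4 CPM in KO DMSO cells. Neither passed the test of the difference (EIF2AK3 -0.16 ± 0.09 SE, edgeR adjusted p = 0.282, and ATF6 -0.12 ± 0.07 SE, edgeR adjusted p = 0.257). XBP1 did, with 239, 225 and 240.03 CPM in KO CB-103 cells and 102, 97.8 and 101 CPM in KO DMSO cells (difference -0.39 ± 0.07 SE, edgeR adjusted p = 9.0e-04).

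XBP1 splicing also differed between the genotypes under CB-103. The spliced share averaged 75.5 ± 0.798% in KO CB-103 and 88.3 ± 0.563% in NT CB-103 libraries without overlap, against 15.6 ± 4.77% in KO DMSO and 13.3 ± 1.1% in NT DMSO libraries, which overlapped (SD, n = 3). The difference in share between genotypes was not tested. The unspliced transcript XBP1-201 fell by 0.82 on the log2 scale in KO CB-103 against KO DMSO cells (edgeR adjusted p = 0.0392). XBP1-206, which also holds the intron, rose there by 1.16 ± 0.25 SE (edgeR adjusted p = 0.00425). The response of XBP1-201 was 1.85 ± 0.35 SE higher in KO than in NT cells (edgeR adjusted p = 0.0159). The response of the spliced transcript XBP1-207, which rose by 3.51 in KO cells, differed by -0.79 ± 0.41 SE and did not pass the threshold (edgeR adjusted p = 0.5). The call of XBP1-201 in KO cells was lost in each fit without 1 of the KO DMSO or KO CB-103 libraries (edgeR adjusted p = 0.0747 to 0.112). The call of the difference was lost when replicate 1 (adjusted p = 0.192) or replicate 2 (0.185) was left out of every group, and in a fit of the 4 groups compared alone (0.0743).

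**Figure D4:**
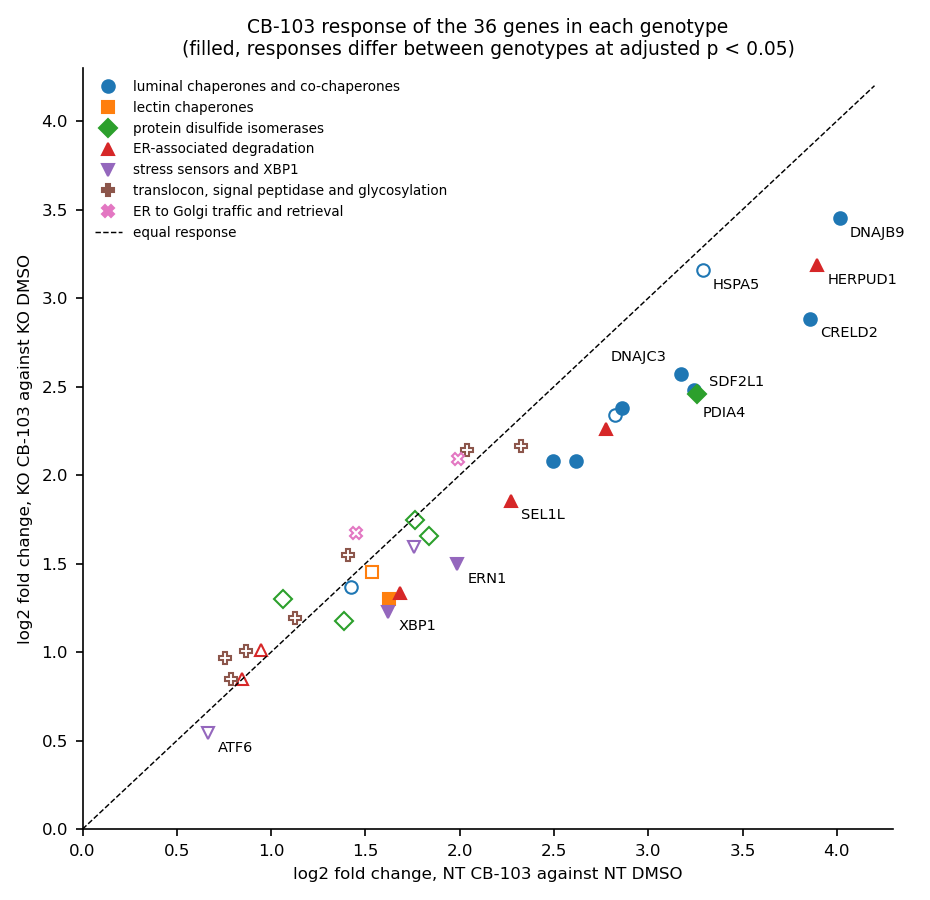
Log2 fold change with CB-103 in NT cells (horizontal axis) and in KO cells (vertical axis) for the 36 tested genes, with symbols by role and filled where the responses differed at an edgeR adjusted p under 0.05. All 15 filled symbols lie below the dashed line of equal response, and the 7 entry genes lie near it, with differences from -0.16 to 0.21.

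Levels under CB-103 were lower in KO than in NT cells for 20 of the 36 genes and higher for 1, where 16.5% and 20.4% of all genes were called lower and higher. The gene that was higher was SSR2 (0.35 ± 0.05 SE, edgeR adjusted p = 5.7e-05). Of the luminal chaperones 9 of 10 were lower. The values of CANX (0.06), P4HB (0.01), EDEM1 (0.04), SSR3 (-0.08) and KDELR2 (-0.07) did not pass the test. The calls of EIF2AK3, PDIA6 and ERN1 were lost without 1 library, EIF2AK3 without NT CB-103 replicate 1 or KO CB-103 replicate 2 (edgeR adjusted p = 0.0714 to 0.0928), PDIA6 without NT CB-103 replicate 1, NT CB-103 replicate 3 or KO CB-103 replicate 2 (edgeR adjusted p = 0.0723 to 0.146) and ERN1 without KO CB-103 replicate 2 (edgeR adjusted p = 0.0681). Mitochondrial reads were also lower in KO than in NT cells under CB-103 (2.24% in KO and 5.23% in NT libraries) and in DMSO (1.79% in KO and 3.34% in NT libraries), and their part in these differences was not tested.

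GSI, which lowers NOTCH signalling at another step, left the list near its DMSO levels. In KO GSI against KO DMSO cells 8 genes were called higher and 5 lower, where 9.69% and 9.58% of all genes were. In NT GSI against NT DMSO cells 4 were called higher and 7 lower, where 9.67% and 15% of all genes were. No gene of the list rose by 2-fold or more in either genotype, where 0.692% of all genes in KO cells and 1.42% in NT cells did, and the medians were 0.04 in KO cells and -0.06 in NT cells. XBP1 had the largest rise, with 148, 138 and 147 CPM in KO GSI cells (0.53 ± 0.05 SE, edgeR adjusted p = 4.7e-07) and 135, 144 and 131 CPM in NT GSI cells (0.43 ± 0.05 SE, edgeR adjusted p = 4.0e-06). All GSI libraries lay above all DMSO libraries, while the spliced share was lower, as described above. ERN1 measured 23.5, 24.04 and 24.7 CPM in KO GSI cells and 17.7, 18.1 and 18.04 CPM in NT GSI cells, below DMSO in both genotypes (-0.27 ± 0.06 SE in KO cells, edgeR adjusted p = 0.0018, and -0.39 ± 0.06 SE in NT cells, edgeR adjusted p = 5.9e-05). HERPUD1 measured 21.05, 19.9 and 22.4 CPM in KO GSI cells and 18.5, 21.01 and 18.6 CPM in NT GSI cells (-0.60 ± 0.07 SE in KO cells, edgeR adjusted p = 1.4e-05, and -0.34 ± 0.07 SE in NT cells, edgeR adjusted p = 0.00283), and it too was below DMSO in both. The ERN1 call in KO cells was lost without replicate 2 or replicate 3 of every group. The HERPUD1 call in NT cells was lost without replicate 1 of every group.

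CALR was called higher with GSI in both genotypes, by 0.25 ± 0.05 SE in KO cells and 0.21 ± 0.05 SE in NT cells (edgeR adjusted p = 0.0012 in KO and 0.00454 in NT cells). The CALR call was lost in NT cells with no filter and without replicate 2 or replicate 3 of every group, and in KO cells without replicate 3. Without replicate 3 of every group, 4 of the 13 calls with GSI in KO cells and 3 of the 11 in NT cells remained. HYOU1 and PDIA4 fell in both, with log2 changes for HYOU1 of -0.21 in KO and -0.23 in NT cells and for PDIA4 of -0.20 in KO and -0.26 in NT cells. The HYOU1 call was lost in KO cells without KO DMSO replicate 1, KO DMSO replicate 2, KO DMSO replicate 3, KO GSI replicate 2 or KO GSI replicate 3 (edgeR adjusted p = 0.056 to 0.109) and in NT cells without NT GSI replicate 3 (edgeR adjusted p = 0.0836), and the PDIA4 call in KO cells without KO DMSO replicate 1, KO DMSO replicate 3, KO GSI replicate 2 or KO GSI replicate 3 (edgeR adjusted p = 0.0695 to 0.101). HSPA5, at 302, 283 and 283 CPM in KO GSI cells and 352, 337 and 313 CPM in NT GSI cells, passed the test in neither (-0.15 in KO and -0.13 in NT cells). The response to GSI differed between genotypes for 1 gene, SSR2, a subunit of the TRAP complex (KO minus NT 0.30 ± 0.08 SE, edgeR adjusted p = 0.047), where 2.1% of all genes were called higher and 0.692% lower. That call was lost in 11 of the 12 fits that left out 1 library of the groups compared, all but the one without NT GSI replicate 2. Which genes passed depended on the setting: the Wald test of DESeq2 called SEC61B, SSR1 and SSR2 higher, gene sums of transcript estimates DERL2, SEC61B and SSR2, the replicate block SEC61B and SSR2, and the fit with no filter SEC61B without SSR2. No gene of the list was called lower, with 1 (HERPUD1) at an unadjusted p under 0.05 and 0 by the Wald test of DESeq2.

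Set against GSI directly, CB-103 cells again held more RNA of the list. All 36 genes were called higher in KO CB-103 than in KO GSI cells (24.7% of all genes were called higher and 23.1% lower) and in NT CB-103 than in NT GSI cells (29.2% of all genes were called higher and 27.1% lower). Doses of the compounds are unknown here. Each of these comparisons shares its CB-103 libraries with the comparison against DMSO.

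Without inhibitor some genes of the list differed between the genotypes. In KO DMSO against NT DMSO cells 2 were called higher and 6 lower, where 9.78% and 11.7% of all genes were. Taking both directions together, the share of the list that was called was close to the share of all genes called. SEL1L fell most, with 59.1, 64.7 and 62.4 CPM in KO DMSO cells, against 89.8, 88.2 and 85.7 CPM in NT DMSO cells (-0.50 ± 0.06 SE, edgeR adjusted p = 5.3e-06). It was also lower in KO cells under CB-103 (238, 207 and 229 CPM, -0.92 ± 0.06 SE) and under GSI (57.4, 62.97 and 65.3 CPM in KO GSI cells and 79.01, 82.2 and 77.1 CPM in NT GSI cells, -0.36 ± 0.06 SE). SEC24D measured 79.5, 76.1 and 80.7 CPM in KO DMSO cells, against 95.8, 101 and 97.97 CPM in NT DMSO cells (-0.32 ± 0.05 SE, edgeR adjusted p = 1.3e-04). It too was lower in KO cells under CB-103 (-0.22) and GSI (-0.38). The genes that rose were HERPUD1 (0.39 ± 0.07 SE, edgeR adjusted p = 6.3e-04) and ERN1 (0.31 ± 0.06 SE, edgeR adjusted p = 5.4e-04). ERN1 was higher in KO than in NT cells under GSI (0.42) and lower under CB-103 (-0.18), a call lost without KO CB-103 replicate 2 (edgeR adjusted p = 0.0681). The other 4 genes called lower were DNAJB9 (-0.27), TXNDC5 (-0.25), PDIA4 (-0.20) and HSP90B1 (-0.17). All 4 lost the call when replicate 2 or replicate 3 was left out of every group. HSP90B1 and PDIA4 also lost it with no filter, and HSP90B1 with gene sums of transcript estimates. Calls were lost for DNAJB9 without NT DMSO replicate 1, NT DMSO replicate 2, NT DMSO replicate 3, KO DMSO replicate 2 or KO DMSO replicate 3 (edgeR adjusted p = 0.0543 to 0.105), for PDIA4 without NT DMSO replicate 1, NT DMSO replicate 2, KO DMSO replicate 2 or KO DMSO replicate 3 (edgeR adjusted p = 0.0744 to 0.125) and for HSP90B1 without NT DMSO replicate 1, NT DMSO replicate 2, NT DMSO replicate 3, KO DMSO replicate 2 or KO DMSO replicate 3 (edgeR adjusted p = 0.0565 to 0.154).

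Under GSI 13 of the 36 genes were higher and 5 lower in KO than in NT cells, where 18.8% and 15% of all genes were. Of the 7 entry genes 5 were higher, led by SSR2 (0.43 ± 0.05 SE) and SEC61B (0.38 ± 0.08 SE). The calls of the other 3 did not hold when 1 library was left out. SEC61A1 was lost in each of the 6 such fits (edgeR adjusted p = 0.0542 to 0.139). SSR1 was lost without NT GSI replicate 2, NT GSI replicate 3, KO GSI replicate 2 or KO GSI replicate 3 (edgeR adjusted p = 0.0819 to 0.206). OSTC was lost without NT GSI replicate 1, NT GSI replicate 3, KO GSI replicate 2 or KO GSI replicate 3 (edgeR adjusted p = 0.0854 to 0.214). All 3 were also lost with no filter and with only the groups compared. Of the other genes called higher, HSPA13, DERL1 and DERL2 also lost the call in fits without 1 library. Of the 18 calls in both directions, 12 remained with no filter and 6 without replicate 3 of every group. The 5 that were lower were SEC24D, SEL1L, SYVN1 (-0.29), HSPA5 (-0.21) and HSP90B1 (-0.20). Calls were lost for HSPA5 without NT GSI replicate 1, NT GSI replicate 2, KO GSI replicate 2 or KO GSI replicate 3 (edgeR adjusted p = 0.0911 to 0.161), for SYVN1 without NT GSI replicate 1 (edgeR adjusted p = 0.0803) and for HSP90B1 without NT GSI replicate 1 (edgeR adjusted p = 0.06).

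Genes of the same pathways outside the list were read from 6 further lists of 81 genes in all. In NT CB-103 against NT DMSO cells 64 of the 81 were called higher, 8 lower and 9 neither, with a median of 0.96, where 29.5% of all genes were called higher and 28.7% lower. In KO CB-103 against KO DMSO cells 68 were called higher, 4 lower and 9 neither, with a median of 1.00, where 24.9% of all genes were called higher and 23.7% lower. In NT cells the counts were 14 higher and 1 lower of 15 genes of ER to Golgi traffic, 17 and 1 of 19 of translocation and glycosylation, 12 and 1 of 14 of degradation, 7 and 2 of 12 of oxidative folding, 8 and 0 of 11 of the PERK arm, and 6 and 3 of 10 further sensors and processing factors. DDIT3 (CHOP), the transcription factor downstream of PERK and ATF4, had the largest change, with 195, 193 and 218 CPM in KO CB-103 and 275, 274 and 306 CPM in NT CB-103 cells, against 8.68, 8.82 and 9.25 CPM in KO DMSO and 9.19, 10.3 and 10.4 CPM in NT DMSO cells. It rose 22.6-fold in KO cells and 28.5-fold in NT cells (log2 4.50 ± 0.08 SE in KO cells, edgeR adjusted p = 1.4e-16, and 4.83 ± 0.08 SE in NT cells, edgeR adjusted p = 3.7e-17). PPP1R15A (GADD34), which restores translation after PERK activity, rose by 3.65 ± 0.08 SE in KO and 3.54 ± 0.08 SE in NT cells.

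SEC11C, a catalytic subunit of the signal peptidase, rose by 2.39 ± 0.07 SE in KO and 3.03 ± 0.07 SE in NT cells, and SRPRB of the signal recognition particle receptor by 1.64 ± 0.10 SE in KO and 1.73 ± 0.10 SE in NT cells. ERO1B, an oxidase that recharges disulfide isomerases, rose by 2.11 ± 0.07 SE in KO and 2.79 ± 0.07 SE in NT cells, and ERP44, which retains ERO1 proteins in the early secretory pathway, by 1.10 ± 0.07 SE in KO and 1.48 ± 0.07 SE in NT cells. SELENOS, a selenoprotein of the degradation machinery, rose by 2.33 ± 0.09 SE in KO and 2.77 ± 0.09 SE in NT cells, and HM13 (signal peptide peptidase) by 1.63 ± 0.05 SE in KO and 1.98 ± 0.06 SE in NT cells. In vesicle traffic TMED2, a cargo receptor, rose by 1.60 ± 0.05 SE in KO and 1.74 ± 0.05 SE in NT cells, and SEC23B, a COPII coat subunit, by 1.33 ± 0.07 SE in KO and 1.70 ± 0.07 SE in NT cells. WFS1, an ER membrane protein linked to the stress sensors, rose by 1.24 ± 0.11 SE in KO and 2.01 ± 0.11 SE in NT cells. The largest edgeR adjusted p of these 9 genes in either genotype was 3.4e-08.

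BLOC1S1, whose messenger RNA is a known substrate of IRE1 cleavage, moved the other way. It measured 14.8, 16.9 and 17.3 CPM in KO CB-103 cells and 9.83, 8.44 and 8.33 CPM in NT CB-103 cells, against 28.7, 32.8 and 32.8 CPM in KO DMSO cells and 34.8, 33.9 and 34.6 CPM in NT DMSO cells. The CB-103 libraries were lower than all DMSO libraries in both genotypes, with log2 fold changes of -0.95 ± 0.09 SE in KO and -1.95 ± 0.09 SE in NT cells (edgeR adjusted p = 6.5e-08 in KO and 4.4e-12 in NT cells). Its fall was smaller in KO than in NT cells (KO minus NT 1.01 ± 0.13 SE, edgeR adjusted p = 5.4e-05).

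With GSI, 18 of the 81 further genes were called higher and 8 lower in KO cells, where 9.69% of all genes were called higher and 9.58% lower. In NT cells 7 of the 81 were called higher and 19 lower, where 9.67% of all genes were called higher and 15% lower. The 8 lower in KO cells (9.88%) and the 7 higher in NT cells (8.64%) were near those shares. In the PERK arm 5 of 11 genes were called lower and 1 higher in KO GSI against KO DMSO cells, and 7 lower and 1 higher in NT GSI against NT DMSO cells.

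**Figure D5:**
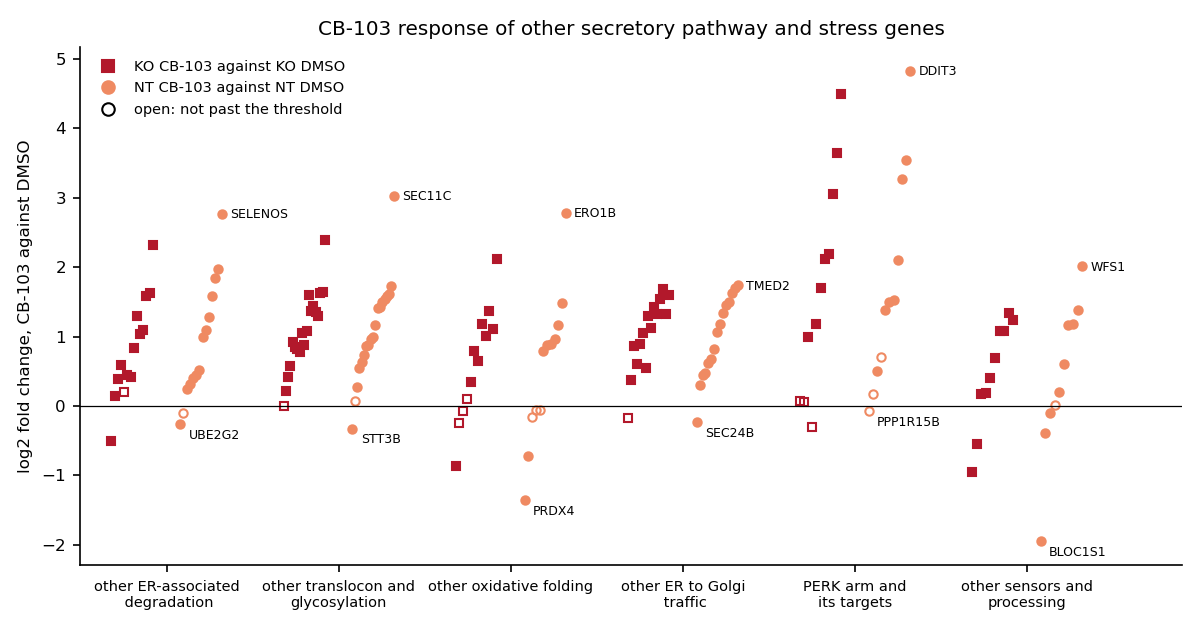
Log2 fold change with CB-103 (vertical axis) of 81 further genes in 6 lists, for KO cells (squares) and NT cells (circles), filled where the edgeR adjusted p was under 0.05, with the lowest and highest gene of NT cells named. Values in NT cells run from -1.95 for BLOC1S1 to 4.83 for DDIT3.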

How the data were processed

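RNA-seq was measured in 18 libraries of RPMI-8402 cells, in 6 groups of 3. The authors deposited expected counts per gene and, per transcript, TPM and estimated read counts from Salmon 1.4.0, whose name and version come, with bcl2fastq 2.20, FastQC 0.11.9, HISAT2 2.2.1 and the build hg38, from the submitters' processing notes. The estimates divide reads among overlapping transcripts, which touches the XBP1 forms most.

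Expected counts were rounded, filtered with filterByExpr and scaled by TMM, and edgeR 4.0.16 (R 4.3.3) was fitted with its quasi-likelihood test, with 1 mean per group over all 18 libraries. P-values were adjusted by Benjamini-Hochberg over all 17346 genes tested and called at 0.05. CPM values use the TMM-scaled library sizes. The genotype differences in response are interaction contrasts. The XBP1 share was tested by exact permutation of libraries within genotype. Alternatives were the size factors and the Wald test of DESeq2 1.42.0, no filter, a replicate block, the groups compared alone, gene sums of transcript estimates and leaving out libraries.

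The 38 genes, the further lists and the markers were chosen with earlier results of these data known. By rule, values in every library are given for ERN1, EIF2AK3, ATF6 and XBP1, for the 3 genes of each role with the largest CB-103 response in NT cells, for the 6 largest called interactions and for the 3 largest called changes with GSI in NT cells and between genotypes in DMSO, and from each further list the 2 called genes with the largest CB-103 response in NT cells and a mean of at least 5 CPM are named, with PIK3R1 and DDIT3 always. The gene-level edgeR test of NT CB-103 against NT DMSO was tried on simulated counts, and no other step was. Deviations of same-numbered libraries correlated positively in all 9 comparisons of 2 groups. Every correlation was over 0.1 in the CB-103 and GSI comparisons of NT cells, where the lowest were 0.124 and 0.128. In each of the other 7 comparisons the lowest lay between 0.0326 and 0.0912 and the highest between 0.272 and 0.339. A planned search of protein ends for ER retention signals was not run.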

Additional observations from a re-analysis of the deposited data

Results flagged for a closer look

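For the following genes and transcript the response to an inhibitor differed between KO and NT cells by a test of the difference itself (KO minus NT, log2 scale, edgeR interaction test). For CB-103, the luminal chaperones so marked were CRELD2 (-0.97, adjusted p = 5.1e-05), SDF2L1 (-0.76), DNAJC3 (-0.60), DNAJB9 (-0.56), DNAJB11 (-0.54), HYOU1 (-0.48) and HSP90B1 (-0.42), with the lectin CALR (-0.33) and the isomerase PDIA4 (-0.80, adjusted p = 1.6e-05). The degradation genes were HERPUD1 (-0.71), SYVN1 (-0.52), SEL1L (-0.42) and DERL2 (-0.35, adjusted p = 0.0189), and the sensor ERN1 (-0.49) and XBP1 (-0.39) completed the 15 genes of the list.

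In the further lists, only the genes named above were screened, and they were picked for a large CB-103 response in NT cells. Such a choice by itself favours a smaller response in KO cells. Over the further lists as a whole, the median response to CB-103 was not smaller in KO than in NT cells. Among the genes screened, it was smaller in KO than in NT cells for WFS1 (-0.77), ERO1B (-0.67), SEC11C (-0.64), SELENOS (-0.44), SEC23B (-0.38), ERP44 (-0.38), HM13 (-0.35) and DDIT3 (-0.33, adjusted p = 0.0425). BLOC1S1 fell less in KO cells (1.01, adjusted p = 5.4e-05), and so did the unspliced transcript XBP1-201 (1.85, adjusted p = 0.0159). The DDIT3 call was lost in 9 of the 12 fits that left out 1 library of the 4 groups (adjusted p = 0.0519 to 0.122), and the SELENOS call was lost without NT CB-103 replicate 3 (adjusted p = 0.061) or KO DMSO replicate 2 (adjusted p = 0.0631). The DERL2 call was lost without NT CB-103 replicate 3 (adjusted p = 0.0593) or KO DMSO replicate 1 (adjusted p = 0.0523). For GSI, SSR2 differed (0.30, adjusted p = 0.047). Its call was lost in 11 of 12 such fits, and other settings called SEC61B, SSR1 or DERL2 as well, or SEC61B in its place.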

How the results depend on the processing

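The counts of 36 genes called higher with CB-103, against DMSO and against GSI and in both genotypes, held under every alternative run, and the rise of the XBP1 spliced share with CB-103 kept the smallest p its rearrangements allow (0.005, or 0.0312 with the replicate block). Without a filter 2 genes were called higher with GSI in NT cells and 5 in KO cells, and 3 lower in KO GSI than in NT GSI cells. With the size factors of DESeq2 3 were called lower with GSI in KO cells. With only the groups compared, 4 genes were called higher and 10 lower between KO and NT cells in DMSO, 8 higher in KO GSI than in NT GSI cells, 1 higher in the CB-103 interaction and 0 in the GSI interaction. The Wald test of DESeq2 called 2 higher in the CB-103 interaction and 3 in the GSI interaction, and gene sums of transcript estimates 3 and 3. With the replicate block, 4 genes were called higher in KO cells in DMSO, 2 higher in KO CB-103 than in NT CB-103 cells, 3 higher in the CB-103 interaction and 2 in the GSI interaction. The block ended no call of the list. In the CB-103 and GSI comparisons of NT cells, where every correlation of same-numbered libraries was over 0.1, it changed no call by its direction. No count changed there by over 1.5 times. The XBP1-201 fall in KO cells was -0.82 without a filter (adjusted p = 0.0655), and its difference between genotypes 1.86 with only the groups compared (adjusted p = 0.0743).

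Leaving out libraries gave 5 to 16 genes lower and 0 to 3 higher in the CB-103 interaction, the 5 being DNAJB9, DNAJC3, CRELD2, PDIA4 and HERPUD1 without replicate 3 of every group. It gave 0 to 1 higher in the GSI interaction, 1 to 2 higher in KO CB-103 against NT CB-103 cells, 2 to 8 lower in KO cells in DMSO, 3 to 8 higher and 1 to 5 lower with GSI in KO cells, 1 to 3 higher and 2 to 7 lower with GSI in NT cells, and 4 to 12 higher and 2 to 7 lower in KO GSI against NT GSI cells. XBP1-201 ranged from 1.49 to 2.12 in the difference and from -0.88 to -0.77 in KO cells. The sign turned for ERN1 in the GSI interaction with gene sums (-0.0076) and for XBP1-206 with GSI in KO cells without KO DMSO replicate 2 (0.10) or without replicate 2 (0.053), with a range of -0.26 to 0.10 over left-out libraries, none past the threshold. The cause was not tested. Of 4599 alternatives for 295 results on single genes and XBP1 transcripts, 4296 kept direction and call, 292 lost the call, 8 gained it and 3 turned. DERL3, at 0, and KDELR3, at or below 0.078 CPM, did not pass the count filter and were not tested.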

Other observations

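Chosen after its values were seen, MANF was highest in the replicate 1 library of each of the 6 groups. It measured 353, 252 and 279 CPM in KO CB-103, 565, 381 and 432 CPM in NT CB-103, 61.0, 49.5 and 47.2 CPM in KO GSI, 64.2, 53.1 and 46.8 CPM in NT GSI, 71.5, 49.9 and 53.4 CPM in KO DMSO, and 77.9, 61.7 and 55.3 CPM in NT DMSO libraries, with replicates 1, 2 and 3 in that order. The labels do not say what replicates of the same number share.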
